A study of Homo sapiens with 39 samples.

Results

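The genes described here are the clustered histone genes, the copies of the linker histone H1 and of the core histones H2A, H2B, H3 and H4 that sit together in large clusters on chromosomes 6 and 1. They were chosen by name: a protein-coding gene counted as a member if its symbol was H1-1 to H1-6 or consisted of H2AC, H2BC, H3C or H4C and a number with nothing after it, and if at least 10 counts were recorded in at least 3 of the 39 libraries. Of 63187 genes in the count table, 69 carried such a symbol and 46 passed the count minimum. The 46 members comprised 3 H1, 13 H2A, 12 H2B, 7 H3 and 11 H4 genes, of which 33 lay on chromosome 6, 12 on chromosome 1 and 1, H4C16, on chromosome 12. Among the 23 genes left out, 9 had no count in any library and the highest count in any library was 41. Just inside the rule, H3C12 reached 10 counts in 3 libraries, with at most 13 counts in any. Just outside it, H1-6 and H2BC14 (at most 11 counts) and H4C4 (at most 16 counts) reached 10 counts in 2 libraries each. In all, 29 members had 10 counts or more in every library and 17 did so in some libraries only.

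Histones are the proteins around which DNA is wound. H2A, H2B, H3 and H4 form the nucleosome core and H1 binds the linker DNA between cores. The clustered copies are transcribed mainly while DNA is replicated, under the coactivator NPAT, and most of their mRNAs carry no poly(A) tail but end in a short stem-loop that the protein SLBP binds and that the U7 snRNP helps to cut. Some of the same genes can also give longer, spliced or polyadenylated mRNAs, which have been described in cells that leave the cell cycle. The libraries were made from mRNA captured by its poly(A) tail, so the counts describe polyadenylated histone transcripts and whatever tail-less transcripts were carried along, and not the bulk of histone mRNA in the cell.

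All libraries came from C4-2B, a castration-resistant human prostate cancer cell line, kept in serum-containing medium. The panel held 7 groups treated for 5 days with DMSO vehicle, the hormonal drugs abiraterone 5 µM or enzalutamide 20 µM, the PARP inhibitors (PARPi) olaparib 1 µM or talazoparib 10 nM, or the pairs abiraterone plus olaparib and enzalutamide plus talazoparib at those doses. The time course held 6 groups, namely DMSO, olaparib 1 µM and olaparib 5 µM, each sampled at day 1 and at day 5. Every group had 3 libraries, lettered A to C in the panel and numbered 1 to 3 in the time course. No source used here says that replicates were separate cultures, so the p-values measure only the spread between these libraries. Because RNA was taken from whole dishes, fewer cells in S phase and less histone RNA in each such cell cannot be told apart.

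The stem-loop is shown first because it is the feature that sets these mRNAs apart. In the GRCh38 genome, with GENCODE v44 transcripts, the pattern GGNNNTTTNNANNNCC was found within 150 bases after a stop codon in 45 of 46 members, 43 of them with Watson-Crick pairing at all 6 stem positions, against 17 of 19881 other protein-coding genes (0.0855%). It began 22 to 67 bases after the stop codon, with a median of 36.0. The member without a match was H3C6. Each line below gives 26 bases, 5′ to 3′ on the strand of the gene, with the 16-base stem-loop in capitals.
H1-2: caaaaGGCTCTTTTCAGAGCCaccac
H2AC18: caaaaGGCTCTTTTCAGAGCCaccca
H2BC21: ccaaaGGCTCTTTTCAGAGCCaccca
H2BC11: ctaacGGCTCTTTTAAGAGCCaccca
H2AC11: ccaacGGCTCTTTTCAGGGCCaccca
H4C16: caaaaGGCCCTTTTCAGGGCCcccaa
H4C15: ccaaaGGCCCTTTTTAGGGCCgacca
The stem-loops in capitals lie at chr6:26055744-26055759 (H1-2, minus strand), chr1:149842223-149842238 (H2AC18, minus), chr1:149886188-149886203 (H2BC21, minus), chr6:27132321-27132336 (H2BC11, minus), chr6:27133515-27133530 (H2AC11, plus), chr12:14770724-14770739 (H4C16, minus) and chr1:149860769-149860784 (H4C15, minus), each in the 3′ untranslated region. The sequence printed for H1-2, H2AC18 and H2BC21 was the commonest of 7 different stem-loops and was carried by 25 members. H2AC11 is shown because 1 of its stem positions was not a Watson-Crick pair. The search counted Watson-Crick pairs only, so a G-U wobble, which can pair in RNA, was not counted as a pair. An annotated transcript that ran past the stem-loop existed for 15 members (H2AC6, H2AC25, H2BC4, H2BC5, H2BC6, H2BC11, H2BC15, H2BC18, H2BC21, H2BC26, H3C10, H4C8, H4C14, H4C15 and H4C16), and in 14 of these its last 50 bases held the polyadenylation signal AATAAA or its variant ATTAAA. These 15 are called members with a longer transcript below, and the 30 others with a stem-loop are called stem-loop-only members. The split comes from annotation alone and not from the counts.

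Promoters (250 bases before to 50 after the start, RefSeq on GRCh38) were matched for 43 members and searched on both strands. TATAAA was present in 29 of them and in 12% of all 27305 promoters, and CCAAT in 35 and in 35.7%, with only 1 of 9 H4 promoters holding CCAAT. The octamer ATTTGCAT was found in 8 H2A and 8 H2B promoters and in 1.8% of all promoters. AAACACA was found in all 3 H1 promoters, in 2 others and in 5.76% of all promoters.

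Library totals ran from 26932205 to 49833473 counts, with a median of 37223200. The labelled cell line was borne out by its markers, since KLK3, which encodes PSA, lay between 296.9 and 1818.0 CPM (counts scaled to a common library total). The leukocyte marker CD3E and the fibroblast collagen COL1A2 had at most 1 and 2 counts in any library, while COL1A1 reached 22.59 CPM and CD68 28.05 CPM. The leukocyte marker PTPRC (at most 47 counts) and the fibroblast collagen COL3A1 (at most 29 counts) were called higher with abiraterone (3.52 ± 0.70 and 2.93 ± 0.52 on the log2 scale by edgeR), enzalutamide (4.15 ± 0.66 and 2.65 ± 0.53) and both combinations (4.58 and 4.96 for PTPRC, 3.55 and 3.04 for COL3A1). With olaparib 5 µM at day 5 COL3A1 was called higher too (1.33 ± 0.43), at a mean of 12 counts. COL1A1 was called higher in every drug comparison with DMSO but olaparib 5 µM at day 5, by 0.19 to 0.86. CD68, a macrophage marker, fell with abiraterone (-0.73 ± 0.16) and enzalutamide (-1.14 ± 0.16) and rose with olaparib (1.32 ± 0.14) and talazoparib (1.16 ± 0.14) in the panel and with olaparib 1 µM (1.42 ± 0.09) and 5 µM (2.26 ± 0.08) at day 5. The part of these 4 markers in the histone results was not tested. Mitochondrial genes took 8.24% to 14.6% of counts. A set of 5 RNAs that end without a poly(A) tail (RN7SL1, RN7SL2, RN7SK, RMRP and RPPH1) together made up 24.3 to 1298.0 CPM, and the highest value was in replicate 3 of olaparib 5 µM at day 1, where the members' summed share (660.2 CPM) was close to that of the other two libraries of the group (632.6 and 629.8). The 5 RNAs were at 750.4 to 1252.0 CPM in DMSO at day 5 and at 30.6 to 65.2 in olaparib 5 µM at day 5, and mitochondrial genes took 8.29% and 14.5% of counts in those groups. The part of either in the histone results was not tested.

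Expression was concentrated in few members. H2BC21, an H2B gene with a longer transcript (ENSG00000184678, chr1:149884459-149886682), had the highest mean level at 191.8 CPM and H1-2, a main somatic linker histone (ENSG00000187837, chr6:26055740-26056470), the next at 162.2 CPM. Only these passed 100 CPM on average, 16 members passed 10 CPM and 18 were below 1 CPM. The top 3 members held 49.2% of all member counts and the top 10 held 84.5%. Per kilobase of the longest annotated mRNA, the scale on which genes can be compared, H1-2 led with 221.9 CPM per kb, followed by H2BC12 (181.2), H2AC18 (119.1), H2BC21 (86.2) and H2AC6 (49.8). Members with a longer transcript had a median of 17.2 CPM per kb and took 58.4% of member counts, and the 31 without had a median of 1.71 CPM per kb. These lengths are upper limits where a short and a long transcript coexist.

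As a share of the library total, without TMM scaling, the summed members gave 877.8 ± 19.2 CPM in the panel's DMSO group (SD, n = 3). Against that level the 3 libraries of enzalutamide (500.8, 529.6 and 536.4) and of abiraterone (732.3 to 764.4) were all lower, the 3 of olaparib (1100.0 to 1170.0) and of talazoparib (1030.0 to 1072.0) all higher. Abiraterone plus olaparib (859.6 to 873.5) overlapped DMSO (859.2 to 897.5) and enzalutamide plus talazoparib (676.3 to 685.0) did not. In the time course, DMSO stood at 921.3 ± 11.5 at day 1 and 946.7 ± 8.45 at day 5. Olaparib at day 1 lay below at 1 µM (719.1 to 750.6) and lower still at 5 µM (629.8 to 660.2), whereas at day 5 it lay above at 1 µM (1213.0 to 1244.0) and at 5 µM (1297.0 to 1302.0). At 5 µM and day 5, H2BC21 had 427.2 to 438.8 CPM after TMM scaling, against 132.6 to 137.7 in DMSO. H2AC18 and H2AC19 together gave 218.1 CPM on library totals, against 53.7. The rises of these genes together exceeded that of the sum, so the other members summed to less than in DMSO. With mitochondrial genes and the 5 tail-less RNAs taken out of the totals, olaparib 5 µM at day 5 stood at 1519.0 and DMSO at 1033.0 CPM, and the order of the time-course groups was the same. In the panel, abiraterone plus olaparib then stood at 1001.0 and DMSO at 974.8, the reverse of their order on full totals.

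**Figure D1:**
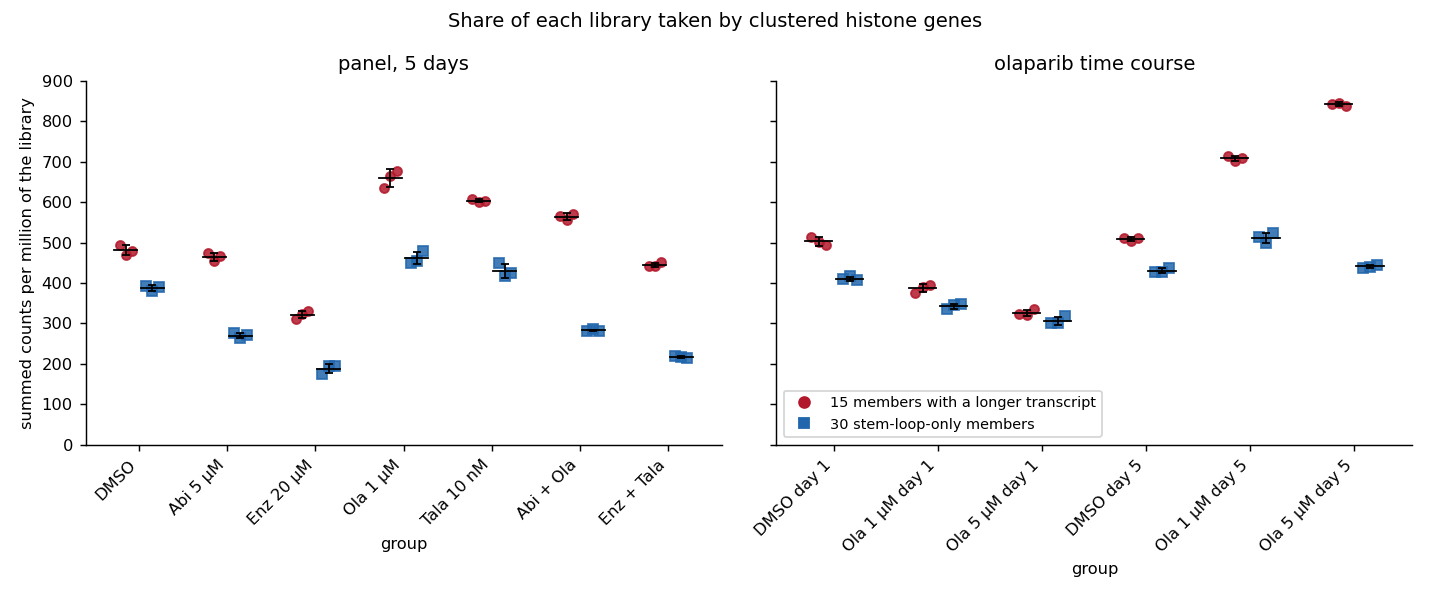
Summed CPM on library totals (y axis) for the 15 members with a longer transcript (red circles) and the 30 stem-loop-only members (blue squares) in each group (x axis); each symbol is a library, the black line the mean and the bar the SD. At day 5 of olaparib 5 µM the longer-transcript members reached 842.8 CPM against 508.6 in DMSO, while the stem-loop-only members were at 440.9 against 430.6, or at 222.7 against 376.9 without H2AC18 and H2AC19. Most of the longer-transcript difference lay in H2BC21.

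Summed by transcript type, members with a longer transcript gave 564.2 ± 8.35 CPM in abiraterone plus olaparib against 480.9 ± 12.6 in DMSO, and stem-loop-only members 282.7 ± 2.04 against 387.6 ± 6.24. Within the second class the H1 genes, all of them stem-loop-only, gave 93.9 CPM against 218.6. The 27 other stem-loop-only members gave 188.8 ± 2.83 against 169.0 ± 3.74, and these include H2AC18 and H2AC19, together at 97.6 against 57.9. In olaparib 5 µM at day 5 the first class was at 842.8 ± 4.51 (DMSO 508.6 ± 4.25). Most of that difference lay in H2BC21, at 427.2 to 438.8 CPM after TMM scaling (DMSO 132.6 to 137.7). The other class was at 440.9 ± 4.16 (DMSO 430.6 ± 5.62). That near-equal sum held opposite differences, since the near-identical pair H2AC18 and H2AC19 gave 218.1 CPM against 53.7, and the 28 other stem-loop-only members 222.7 ± 1.93 against 376.9 ± 3.08. With H1 and the pair both left out, the 25 that remain gave 101.8 ± 1.80 against 153.3 ± 3.61 there, and 91.2 ± 2.06 against 111.1 ± 6.01 in abiraterone plus olaparib. These subsets were chosen after the values were seen. Under enzalutamide both classes were lower, at 321.4 ± 8.85 and 188.2 ± 10.8 CPM. With enzalutamide plus talazoparib both were also lower than DMSO, at 444.9 ± 5.12 and 217.1 ± 2.30 CPM.

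Gene by gene, changes were tested with edgeR's quasi-likelihood test on all genes that passed its filter, with Benjamini-Hochberg adjustment over 18625 genes in the panel and 18502 in the time course, and a gene was called at an adjusted p under 0.05. Of the members, 41 were tested in the panel (H2AC14, H2AC21, H3C12, H4C1 and H4C9 were not) and 44 in the time course (H3C12 and H4C1 were not). Fold changes below are log2 values with their standard error, and per-library levels are CPM after TMM scaling.

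**Figure D2:**
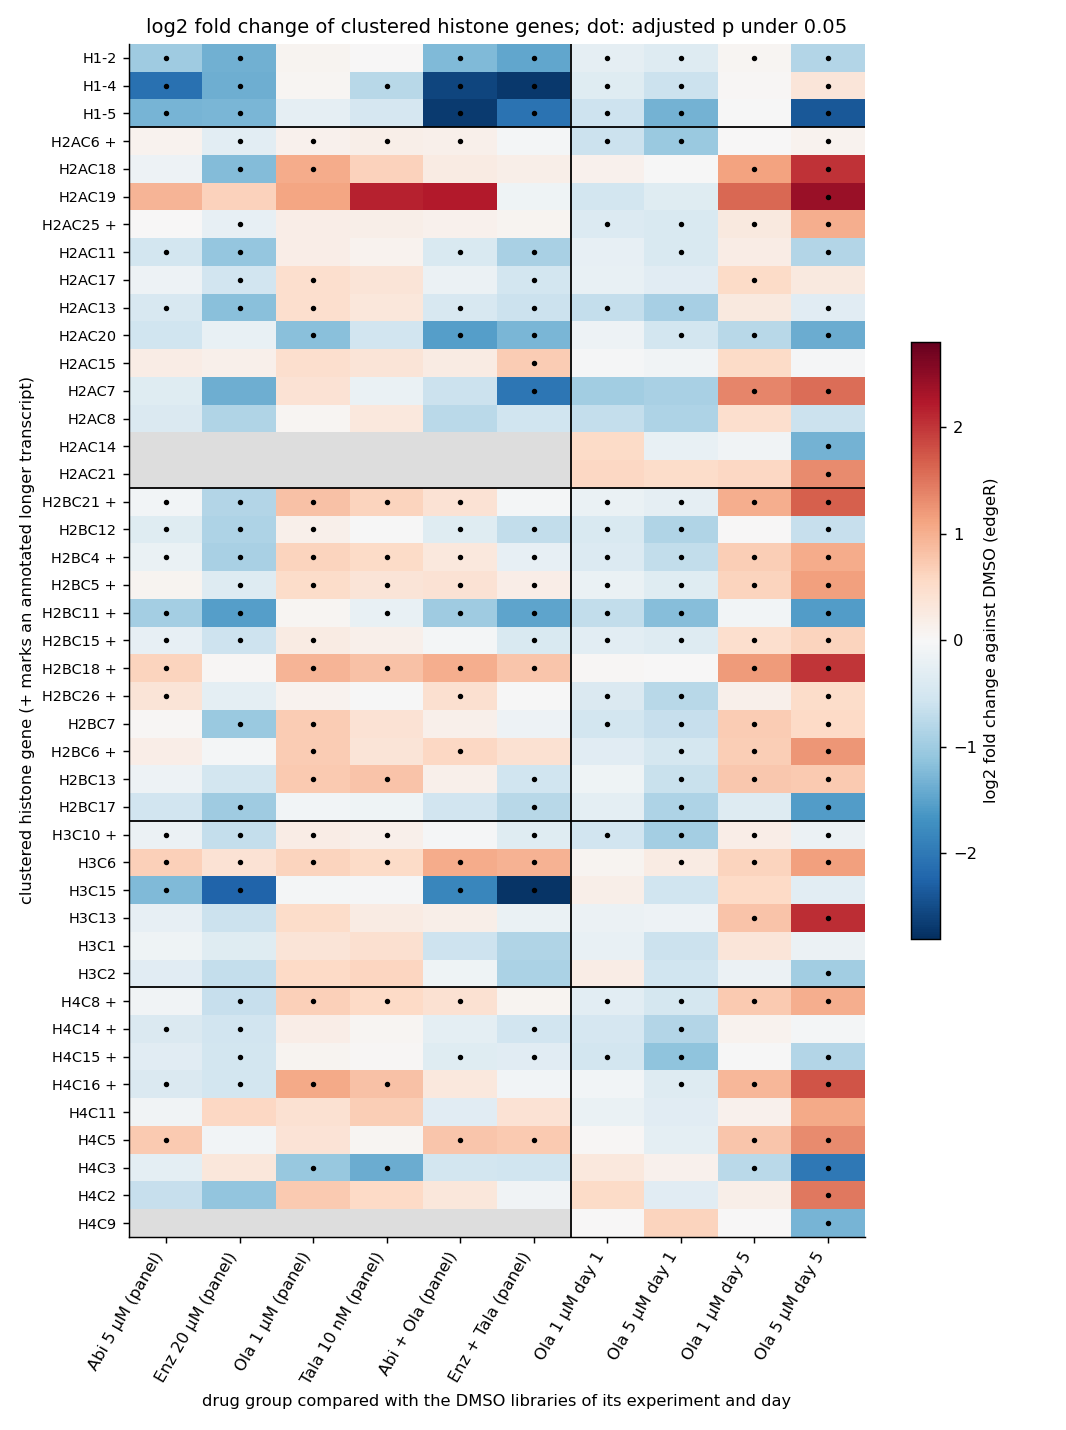
Log2 fold change (colour, edgeR) of each tested clustered histone gene except H4C12 (rows, by family and then by mean level; + marks an annotated longer transcript) in the 10 comparisons of a drug group with DMSO (columns); dots mark an adjusted p under 0.05 and grey cells were not tested. Values run from -2.74 to 2.41; the H1 genes are lower in every group with a hormonal drug, and with olaparib alone at day 5 8 or 9 of the 12 H2B genes are called higher, against 5 with talazoparib.

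The first question was what the hormonal drugs do to these transcripts. With abiraterone, 4 of 41 tested members were higher and 14 lower than DMSO, beside 25.8% of all genes higher and 27.1% lower, with a median of -0.19 over the members and 0.0 over all genes. With enzalutamide 1 was higher and 23 were lower, beside 27.0% and 26.3% of all genes, with a median of -0.57 against 0.02. Abiraterone's share of members lower was thus near that of all genes and its share higher below it, while enzalutamide's share lower was above that of all genes and its share higher below. Under total-count scaling the abiraterone counts were 6 higher and 8 lower, so that split depended on the scaling.

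The linker histones fell with both drugs. H1-2 stood at 216.1, 209.3 and 211.5 CPM in DMSO, at 106.9, 103.8 and 110.1 with abiraterone and at 78.4, 85.1 and 86.6 with enzalutamide. The groups did not overlap, and the changes were -0.99 ± 0.04 (adjusted p = 8.71e-23) and -1.35 ± 0.04 (adjusted p = 1.15e-26). H1-4, a less abundant linker histone, had 5.04 to 8.12 CPM in DMSO, 1.16 to 1.73 with abiraterone and 1.67 to 3.16 with enzalutamide, changes of -2.09 ± 0.22 (adjusted p = 1.35e-08) and -1.36 ± 0.21 (adjusted p = 4.26e-06). H1-5 fell by 1.30 ± 0.24 with abiraterone and by 1.27 ± 0.24 with enzalutamide on the log2 scale. Its DMSO libraries (1.95 to 2.72 CPM) and the libraries of both drugs (0.734 to 1.15 CPM) did not overlap.

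Among the core histones, H2BC11 fell with both hormonal drugs. It had 21.5, 22.6 and 25.2 CPM in DMSO, 11.6, 12.1 and 12.1 with abiraterone and 7.04, 9.10 and 7.40 with enzalutamide, so that no library overlapped DMSO; the changes were -0.95 ± 0.08 (adjusted p = 2.1e-12) and -1.55 ± 0.08 (adjusted p = 1.13e-17). H2BC12, which shares 39% of its 75-base pieces with other genes, fell by 0.34 ± 0.05 and by 0.86 ± 0.05 with abiraterone and enzalutamide. H3C15 carried the lowest value of any member under enzalutamide, -2.25 ± 0.29, at 74 counts or fewer in any library and with a near-identical copy in H3C14. In contrast, H3C6, the H3 gene in which no stem-loop was found and which has a spliced, 2679-base mRNA, rose with both, from 8.81 to 10.5 CPM in DMSO to 13.8 to 15.6 with abiraterone (0.66 ± 0.08, adjusted p = 4.4e-09) and 11.9 to 12.9 with enzalutamide (0.39 ± 0.08, adjusted p = 4.68e-05). H3C6 was the only member called higher with enzalutamide.

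Enzalutamide was compared directly with abiraterone at the doses used, which differ. Relative to abiraterone, 1 member was higher and 18 were lower, beside 9.78% and 10.1% of all genes, with a median of -0.39. H2BC21 differed by -0.74 ± 0.03 (adjusted p = 9.44e-19), with 157.8, 157.5 and 154.3 CPM in abiraterone and 91.6, 93.2 and 95.7 in enzalutamide, and its abiraterone libraries lay just under the DMSO range of 159.9 to 175.5. The member higher in enzalutamide was H1-4, by 0.73 ± 0.23. By family, 9 of 12 tested H2B members were lower in enzalutamide, against 4 of 11 H2A, 3 of 6 H3 and 1 of 9 H4.

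**Figure D3:**
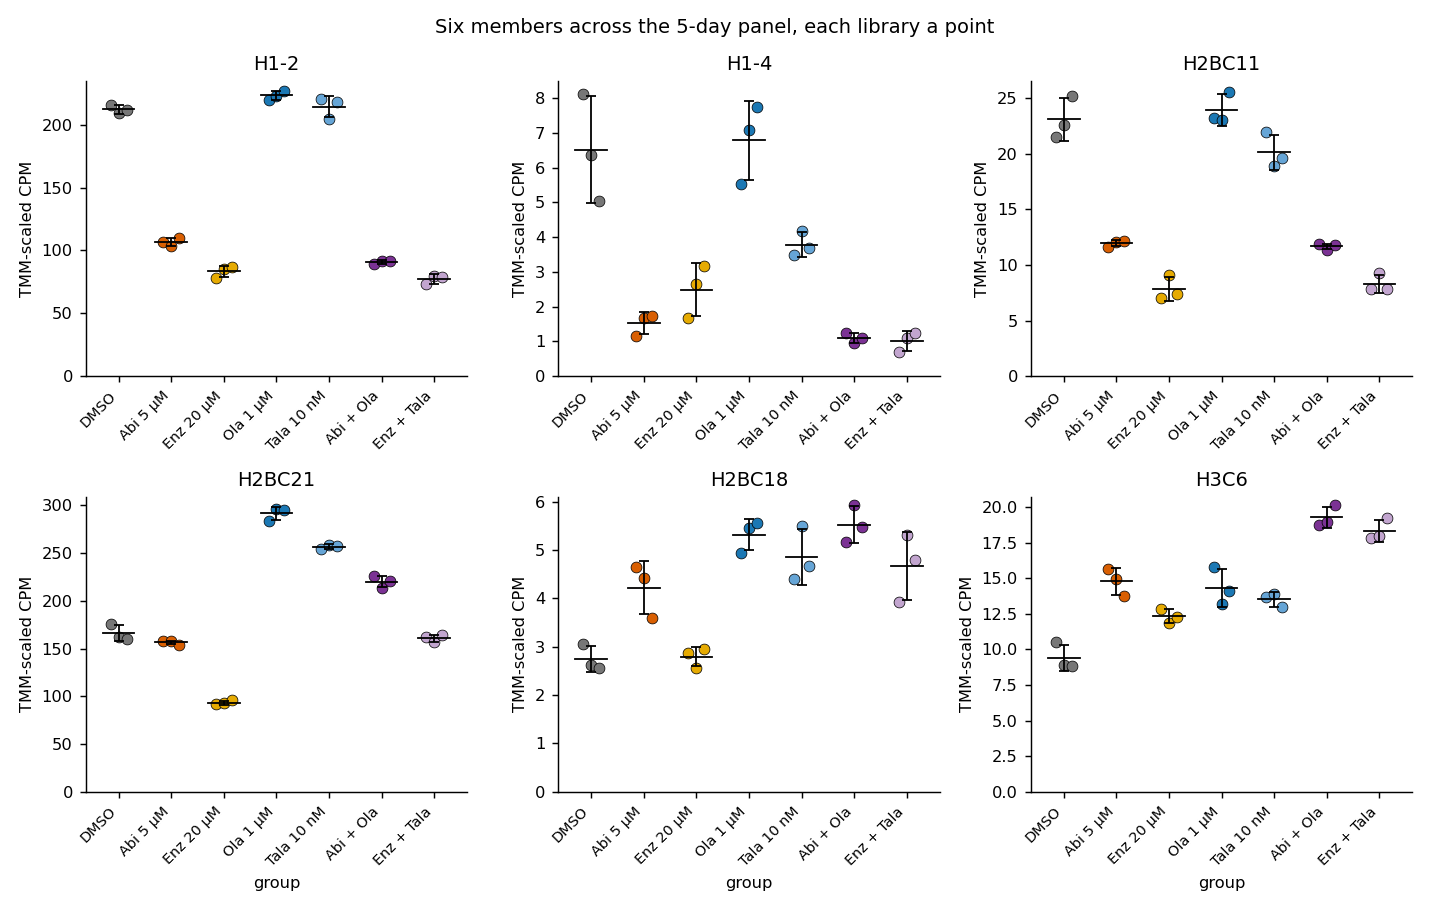
TMM-scaled CPM (y axis, from 0) of 6 members in each of the 21 panel libraries (points) by treatment group (x axis), with the mean (line) and SD (bar) of 3 libraries. H1-2, H1-4 and H2BC11 are low in all 4 groups that received a hormonal drug, H2BC21 is highest with olaparib (283.8 to 296.7), and H3C6 is above DMSO in every drug group.

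With a PARPi alone for 5 days, more members were called higher than lower. With olaparib 1 µM, 17 of 41 members were higher and 2 lower, beside 19.6% and 16.0% of all genes, and the median was 0.41, or 0.37 with H4C12 set to its bound. With talazoparib 10 nM, 10 were higher and 3 lower, beside 18.4% and 15.4%, with a median of 0.24, so that talazoparib's share higher was near that of all genes. Of the 12 H2B members 9 were higher with olaparib and 5 with talazoparib, while none of the 3 H1 members was higher with either.

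H2BC21 rose from 175.5, 162.7 and 159.9 CPM in DMSO to 283.8, 296.7 and 295.0 with olaparib (0.81 ± 0.03, adjusted p = 1.46e-20) and to 254.3, 258.6 and 257.9 with talazoparib (0.63 ± 0.03, adjusted p = 1.41e-17). Neither PARPi group overlapped DMSO. H4C16, the H4 gene outside the clusters, rose from 2.31 to 2.88 CPM to 4.74 to 5.85 with olaparib (1.07 ± 0.16, adjusted p = 9.69e-07) and to 4.24 to 4.71 with talazoparib (0.82 ± 0.16, adjusted p = 7.25e-05). H4C8 rose by 0.67 ± 0.05 and 0.56 ± 0.05, H2BC18, which shares 50.6% of its pieces with other genes, by 0.96 ± 0.13 and 0.83 ± 0.13, and H3C6 by 0.61 ± 0.08 and 0.53 ± 0.08 with olaparib and talazoparib. H2BC13, a stem-loop-only gene at 1.19 to 1.25 CPM in DMSO, rose by 0.74 ± 0.22 and 0.79 ± 0.22. Smaller changes were called in H2AC6 (0.12 ± 0.04 and 0.16 ± 0.04) and H3C10 (0.20 ± 0.05 and 0.15 ± 0.05).

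H1-2 gave 219.7 to 227.1 CPM with olaparib and 204.9 to 220.2 with talazoparib, and was not called (0.07 ± 0.03, adjusted p = 0.0955, and 0.01 ± 0.03, adjusted p = 0.802). H1-4 fell with talazoparib (3.47 to 4.17 CPM, -0.78 ± 0.20, adjusted p = 0.00358) and was not called with olaparib (5.53 to 7.73 CPM, 0.06 ± 0.20). Compared with each other, the 2 PARPi differed in 3 members, all lower with talazoparib, beside 3.11% of all genes higher and 5.25% lower. That share is near the all-gene one, and leaving out 1 library moved the count between 1 (without olaparib C or talazoparib C) and 5 (without talazoparib A). The 3 members were H2BC21 (-0.18 ± 0.03), H1-4 (-0.84 ± 0.20) and H2BC11 (-0.25 ± 0.07), and the 2 drugs were given at different doses.

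In the combinations the direction depended on the gene. With abiraterone plus olaparib, 10 members were higher and 10 lower than DMSO, beside 31.1% and 31.1% of all genes, and the median was -0.03. Members with a longer transcript were 8 higher and 2 lower of 15, and stem-loop-only members 1 higher and 8 lower of 25. With enzalutamide plus talazoparib, 5 were higher and 18 lower, beside 31.2% and 31.3%, with a median of -0.31. The number higher was below the share of all genes in that group, and the number lower was above it. There, longer-transcript members were 2 higher and 6 lower of 15, and stem-loop-only members 2 higher and 12 lower of 25. Members with a longer transcript have the higher levels, with a median of 23.1 CPM against 0.72 for the 31 without. Equal changes are called more easily at a higher level, so the classes' call counts, here and below, are not a like comparison.

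H1-2 stood at 89.1 to 91.8 CPM with abiraterone plus olaparib (-1.23 ± 0.04, adjusted p = 1.59e-25) and at 73.2 to 79.8, overlapping enzalutamide alone, with enzalutamide plus talazoparib (-1.46 ± 0.04, adjusted p = 8.22e-28). H1-4 fell by 2.57 ± 0.23 and 2.70 ± 0.23, and H1-5 by 2.67 ± 0.28 and 2.08 ± 0.25. H2BC11 fell by 0.99 ± 0.08 and 1.48 ± 0.08, close to its values with the hormonal drug alone. H3C6 rose by 1.04 ± 0.08 and 0.97 ± 0.07, to 18.8 to 20.2 and 17.8 to 19.2 CPM. H2BC21 was higher with abiraterone plus olaparib (213.7 to 226.0 CPM, 0.41 ± 0.03, adjusted p = 6.34e-14) and was not called with enzalutamide plus talazoparib (156.6 to 163.8 CPM, -0.04 ± 0.03, adjusted p = 0.205).

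What the PARPi added on top of the hormonal drug was tested within the panel. Olaparib added to abiraterone gave 8 members higher and 2 lower, beside 14.4% and 14.7% of all genes, with a median of 0.09. Of those higher, 7 had a longer transcript, and the 2 that fell were H1-2 (-0.24 ± 0.04) and H1-5 (-1.37 ± 0.30). Talazoparib added to enzalutamide gave 16 higher and 4 lower, beside 16.5% and 17.9%, with a median of 0.25. Of the 15 longer-transcript members, 10 were higher and none was lower. H2BC21 rose by 0.49 ± 0.03 and 0.78 ± 0.03 in these steps, and all 3 H1 members were lower after talazoparib was added to enzalutamide, H1-2 by 0.11 ± 0.04 and H1-4 by 1.34 ± 0.24.

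Departure from additivity asks whether the combination differs from the sum of the log2 changes of its parts. For abiraterone and olaparib no member was above the sum and 4 were below it, beside 4.74% and 8.08% of all genes. They were H1-2 (-0.31 ± 0.05, adjusted p = 5e-05), H1-5 (-1.13 ± 0.38), H2BC18 (-0.57 ± 0.19) and H2BC21 (-0.32 ± 0.04, adjusted p = 2.39e-06). For enzalutamide and talazoparib 1 member, H2BC21, was above the sum (0.15 ± 0.04, adjusted p = 0.0187) and none was below, beside 5.32% and 7.28%. Both counts were near or under the share of all genes, and both moved by more than 1.5 times when single libraries were left out (2 to 6 and 0 to 4).

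The time course asked how early these differences arise and whether they grow with dose. At day 1 the members were lower, not higher. Olaparib 1 µM gave 0 of 44 higher by edgeR and 17 lower, beside 6.3% and 9.52% of all genes, with a median of -0.22. Olaparib 5 µM gave 1 higher and 24 lower, beside 21.6% and 23.4%, with a median of -0.46. Members with a longer transcript were 11 of 15 lower at 1 µM and 14 of 15 at 5 µM, and stem-loop-only members 6 and 10 of 28, with medians of -0.38 and -0.50 for the first class and -0.17 and -0.39 for the second. The first class has the higher counts, which makes a call easier. The member higher at day 1 was H3C6, by 0.23 ± 0.08 (adjusted p = 0.0274), with 7.82 to 9.99 CPM against an overlapping 7.50 to 8.09 in DMSO.

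H2AC6, the most abundant H2A gene after H2AC18 per kilobase, fell at both doses. Its libraries read 108.1, 98.0 and 96.9 CPM in DMSO, 64.4, 68.3 and 66.8 at 1 µM and 48.4, 47.9 and 51.2 at 5 µM, with no overlap between any of the 3 groups (-0.60 ± 0.03, adjusted p = 2.21e-16, and -1.04 ± 0.03, adjusted p = 4.22e-24). H3C10 went the same way, from 43.9 to 46.5 CPM to 30.5 to 31.5 (-0.54 ± 0.03) and 22.7 to 24.0 (-0.94 ± 0.04). H2BC11 fell from 37.1 to 40.0 CPM to 22.1 to 24.5 and 16.02 to 17.3 (-0.69 ± 0.06 and -1.19 ± 0.06). H2AC13, which shares most of its sequence with H2AC14, changed by -0.66 ± 0.14 and -0.94 ± 0.14. H2BC12 changed by -0.44 ± 0.06 and -0.84 ± 0.06, and H4C14 and H4C15, whose sequences are identical over all pieces compared, changed by -0.49 ± 0.03 and -0.97 ± 0.03 when summed.

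The linker histones also fell at day 1, H1-5 the most of any tested member at 5 µM. H1-2 had 196.6 to 209.6 CPM in DMSO, 167.2 to 172.3 at 1 µM and 155.5 to 164.5 at 5 µM (-0.25 ± 0.03 and -0.35 ± 0.03, adjusted p = 5.14e-09 and 1.12e-13). H1-5 fell by 0.57 ± 0.17 and 1.32 ± 0.18, and H1-4 by 0.34 ± 0.10 and 0.59 ± 0.11. H2BC21 went from 111.8 to 115.5 CPM to 95.8 to 103.8 and 93.2 to 98.3 (-0.18 ± 0.03 and -0.26 ± 0.03). H2BC18 was not called at either dose, with 2.36 to 2.57 CPM in DMSO and 2.41 to 2.65 and 2.46 to 2.56 with olaparib.

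**Figure D4:**
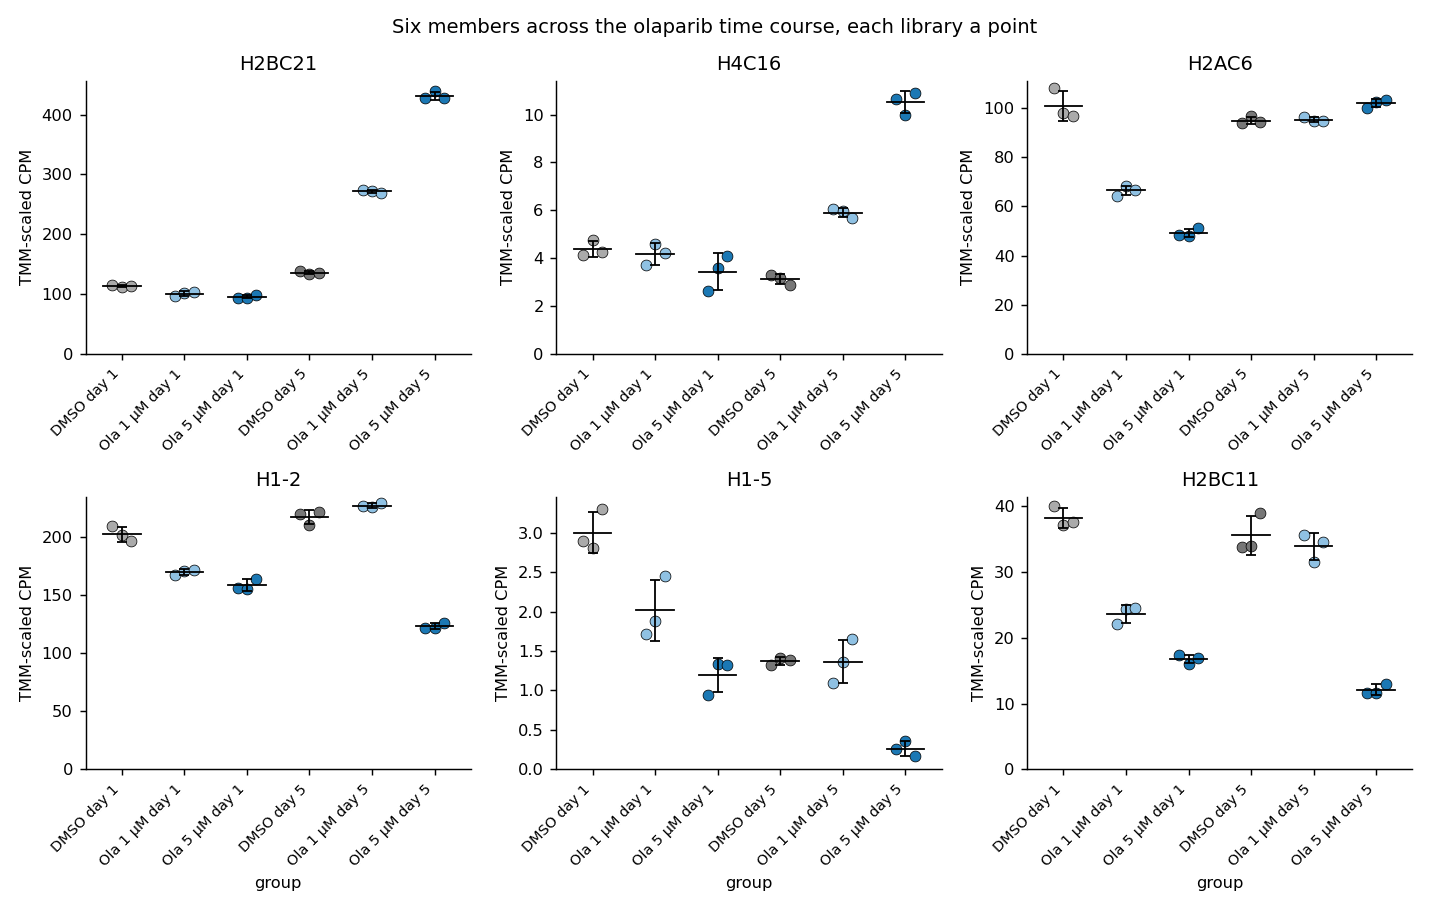
TMM-scaled CPM (y axis, from 0) of 6 members in each of the 18 time-course libraries (points) by group (x axis), with the mean (line) and SD (bar) of 3 libraries. H2BC21 and H4C16 are below or near DMSO at day 1 and above it at day 5, H2AC6 is low only at day 1, and H1-2, H1-5 and H2BC11 are low at day 1 and again at day 5 with 5 µM.

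By day 5 the balance had turned. Olaparib 1 µM gave 19 of 44 members higher and 2 lower, beside 23.4% and 22.9% of all genes, with a median of 0.40, or 0.31 with H4C12 at its bound. Olaparib 5 µM gave 22 higher and 14 lower, beside 34.4% and 33.9%, with a median of 0.43, so that 36 of 44 were called. At 5 µM, 11 of 15 members with a longer transcript were higher and 3 lower (median 1.01), while 10 of 28 stem-loop-only members were higher and 11 lower (median -0.10). Here too the first class has the higher counts.

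H2BC21 stood at 137.7, 132.6 and 134.9 CPM in DMSO, 273.9, 272.0 and 269.0 at 1 µM and 427.2, 438.8 and 427.6 at 5 µM, which is 2.01-fold and 3.19-fold higher (1.01 ± 0.03, adjusted p = 3.47e-27, and 1.67 ± 0.03, adjusted p = 1.27e-35). The 3 groups were far apart relative to their spread. H4C16 rose from 2.88 to 3.28 CPM to 5.70 to 6.03 and 9.99 to 10.9 (0.92 ± 0.12 and 1.75 ± 0.11). H2BC18 rose from 1.57 to 2.01 CPM to 3.69 to 4.91 and 7.05 to 7.62 (1.18 ± 0.12 and 2.00 ± 0.12). H4C8 rose by 0.74 ± 0.03 and 1.01 ± 0.03, H2BC5 by 0.63 ± 0.05 and 1.15 ± 0.05, and H2AC25, an H2A gene at chr1:228434777-228457873, by 0.28 ± 0.07 and 1.01 ± 0.06. H3C13, with 13 to 16 counts per library in DMSO and 50 to 57 at 5 µM, rose by 0.79 ± 0.26 and 2.07 ± 0.24 and shares 62.8% of its pieces with other H3 genes.

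Other members fell at 5 µM at day 5. H1-2 dropped from 210.5 to 221.8 CPM to 121.9 to 126.6 (-0.82 ± 0.03, adjusted p = 2.96e-25), although at 1 µM it was slightly higher (226.0 to 229.7 CPM, 0.06 ± 0.03, adjusted p = 0.0419). H1-5 dropped from 1.32 to 1.41 CPM to 0.169 to 0.365 (-2.37 ± 0.25), and H2BC11 from 33.8 to 39.01 CPM to 11.6 to 13.02 (-1.56 ± 0.06, adjusted p = 3.9e-17). H2BC12 went from 124.9 to 132.7 CPM to 78.7 to 86.1 (-0.64 ± 0.06). Beyond the genes named by rule, H2BC17 (-1.57 ± 0.23), H2AC20 (-1.38 ± 0.24) and H4C3 (-1.996 ± 0.353) were picked out after their values were seen, and H4C3 had 8 counts or fewer in each 5 µM library. H1-4 went against the other linker histones, at 2.14 to 2.52 CPM in DMSO and 2.46 to 3.40 at 5 µM with overlapping ranges (0.35 ± 0.12, adjusted p = 0.0126).

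Raising the dose from 1 to 5 µM at day 5 gave 15 members higher and 14 lower, beside 26.6% and 27.0% of all genes. H2BC21 differed by 0.67 ± 0.03, H1-2 by -0.88 ± 0.03, and H2BC11 by -1.49 ± 0.07. Between the DMSO days, 2 members were higher at day 5 and 5 lower, beside 11.1% and 13.4%. H1-4 fell by 1.62 ± 0.11 and H1-5 by 1.13 ± 0.18 between the DMSO days, from 6.82 to 7.28 CPM to 2.14 to 2.52 for H1-4, and H2BC21 rose by 0.25 ± 0.03. Within the time course the DMSO baseline of H1-4 and H1-5 was therefore lower at day 5, and their day 5 comparisons start from that level. The panel's DMSO libraries, also at 5 days, held 5.04 to 8.12 CPM of H1-4 and 1.95 to 2.72 of H1-5. The lower level thus did not recur in the other DMSO group of that day, and its cause was not tested.

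**Figure D5:**
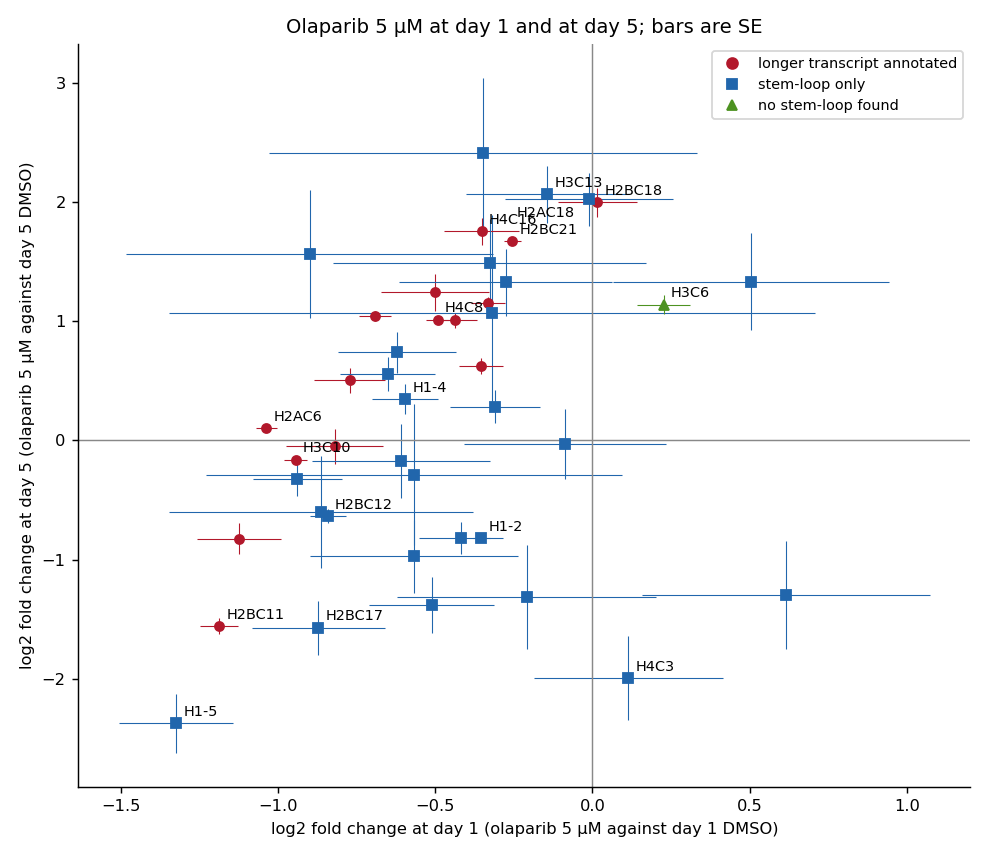
Log2 fold change of each tested member except H4C12 with olaparib 5 µM against same-day DMSO, at day 1 (x axis) and at day 5 (y axis); bars are standard errors, red circles mark members with a longer transcript, blue squares stem-loop-only members and the green triangle H3C6. Most points lie left of 0 at day 1, and at day 5 they spread from -2.37 (H1-5) to 2.41 (H2AC19).

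The change of the olaparib effect between the days was tested as an interaction. At 1 µM the effect was higher at day 5 than at day 1 in 24 members and lower in 0 (edgeR; 1 lower with total-count scaling), beside 15.6% and 14.2% of all genes, with a median of 0.61, or 0.59 with H4C12 at its bound. At 5 µM it was higher in 26 and lower in 6, beside 27.2% and 27.7%, with a median of 0.93, or 0.87 with H4C12 at its bound. Total-count scaling moved the median of all genes in that 5 µM contrast from -0.02 to -0.15 and the member median from 0.93 to 0.80, with 25 members higher and 8 lower. H2BC21 shifted by 1.19 ± 0.04 and 1.93 ± 0.04 and H2AC6 by 0.61 ± 0.05 and 1.14 ± 0.05. The direction was the other one at 5 µM for H1-2 (-0.46 ± 0.04) and H1-5 (-1.05 ± 0.32).

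Because each day had its own DMSO libraries, the calls could be laid side by side. At 1 µM, 9 members were lower at day 1 and higher at day 5, out of 17 and 19, where over all genes 9.14% of those lower at day 1 and 3.72% of those higher at day 5 did so. At 5 µM, 13 were lower and then higher, out of 24 and 22 (all genes 17.6% and 11.98%), and 10 were lower on both days, out of 24 and 14 (all genes 67.0% and 46.3%). The first set at 5 µM included H2BC21, H4C16, H4C8, H2AC6 and H2BC5, and the other H1-2, H1-5, H2BC11, H2BC12, H3C10 and H4C15. H3C6 was higher on both days. Across the experiments, which share no library, olaparib 1 µM at day 5 gave 14 members higher in both the panel (of 17) and the time course (of 19), beside 79.0% and 66.8% over all genes. H2AC20 and H4C3 were lower in both, of 2 lower in each, beside 84.45% and 59.38% over all genes. No member went in opposite directions.

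Near-identical copies limit what can be said of single genes, since 14 members share over 50% of their 75-base pieces with another gene. H2AC18 shares all of its pieces and H2AC19 99.8%, and the estimated counts passed between them from library to library: H2AC19 read 0 counts in replicate A of enzalutamide and 1068 in replicate C, while H2AC18 read 953 and 317. Their sum varied little within groups. In CPM on library totals the pair gave 57.9 ± 2.91 in DMSO, 34.8 ± 2.77 with enzalutamide, 116.5 ± 3.83 with olaparib and 108.7 ± 3.26 with talazoparib, that is -0.78 ± 0.05, 1.05 ± 0.04 and 0.95 ± 0.04. In the time course the pair was at 45.9 ± 1.32 with olaparib 5 µM at day 1 against 48.4 ± 2.96 (-0.13 ± 0.04), and at 218.1 ± 2.31 at day 5 against 53.7 ± 3.00 (2.11 ± 0.03, adjusted p = 1.11e-35). H4C11 and H4C12 showed the same exchange, with H4C12 at 0 in most libraries, and as a pair rose by 1.22 ± 0.22 with olaparib 5 µM at day 5.

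Genes that handle histones were read as context, from lists of genes outside the 46. Of 11 tested histone variants encoded outside the clusters, 2 were higher and 7 lower with olaparib 5 µM at day 5, beside 34.4% and 33.9% of all genes. H2AX and the centromeric CENPA fell by 1.96 ± 0.04 and 3.33 ± 0.08 at 5 µM at day 5. MACROH2A2 rose by 1.36 ± 0.13 with abiraterone and 1.51 ± 0.13 with enzalutamide, and H3-3A, which encodes the variant H3.3, by 0.48 ± 0.03 and 0.54 ± 0.03.

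Of 20 tested genes for histone mRNA transcription, processing and decay, 4 were higher and 16 lower with olaparib 5 µM at day 5, beside those same shares, and 2 and 13 with 1 µM, beside 23.4% and 22.9% of all genes. SLBP fell by 0.83 ± 0.03 and by 0.21 ± 0.03, NPAT by 0.53 ± 0.04 and 0.21 ± 0.04, LSM11, a U7 snRNP subunit, by 1.22 ± 0.09 and 0.52 ± 0.08, and ERI1, a 3′ exonuclease, by 0.94 ± 0.05 and 0.46 ± 0.04 at 5 and 1 µM. At day 1 with 5 µM SLBP changed by -0.12 ± 0.03 and NPAT by 0.23 ± 0.04. With the hormonal drugs, TUT7, which adds uridines to RNA ends, fell by 0.70 ± 0.05 with abiraterone and 0.84 ± 0.05 with enzalutamide, and LSM11 rose by 0.52 ± 0.08 and 0.66 ± 0.08.

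Replication genes were read as context, and the cell cycle itself was not measured in these libraries. All 25 tested DNA replication and S phase genes fell with olaparib 5 µM at day 5 (median -1.85), beside 33.9% of all genes, CDC45, a helicase subunit, by 2.88 ± 0.05 and MCM10 by 3.04 ± 0.04. At 1 µM 24 of 25 fell (median -0.45; all genes 22.9%), and in the panel 23 of 25 with olaparib and 24 of 25 with talazoparib (all genes 16.0% and 15.4%). At day 1 with 1 µM, 2 rose and 12 fell (median -0.09), beside 6.3% and 9.52% of all genes. At day 1 with 5 µM, 8 rose, PCNA among them (0.44 ± 0.02), and 9 fell, beside 21.6% and 23.4% of all genes. With abiraterone 3 rose and 8 fell, beside 25.8% and 27.1%, and with enzalutamide 5 and 5, beside 27.0% and 26.3%, so the counts with the hormonal drugs were near or under the all-gene shares. Of 17 histone chaperones, 14 fell and 3 rose with olaparib 5 µM at day 5 (all genes 33.9% and 34.4%), ASF1B by 2.68 ± 0.05 and HJURP by 2.55 ± 0.04. CDKN1A, which encodes the cell cycle inhibitor p21, rose in all 10 drug comparisons, by 0.18 ± 0.06 with enzalutamide, 2.18 ± 0.05 with olaparib in the panel and 4.15 ± 0.03 at 5 µM at day 5.

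The tail-less RNAs moved differently. In the panel, where DMSO libraries held 33.4 to 69.8 CPM of the 5 RNAs, RN7SL1 and RN7SL2 were called higher with enzalutamide, both PARPi and both combinations, RN7SL2 by 2.56 ± 0.74 with enzalutamide and 2.46 ± 0.74 with olaparib, and no member of the list was called with abiraterone. With olaparib 5 µM at day 5 RN7SL1 and RN7SL2 fell (-4.21 ± 1.31 and -5.03 ± 1.44), while RN7SK (2.64 ± 0.56), RMRP (2.17 ± 0.60) and RPPH1 (1.58 ± 0.33) rose. At day 1 none of the 5 was called at either dose. The balance of histone calls was lower with enzalutamide and higher with olaparib, and RN7SL2 was higher in both; the part of tail-less RNA in either was not tested.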

How the data were processed

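The authors deposited estimated counts per gene for 39 libraries, made per the study's methods and the submitters' notes with Trim Galore, STAR on GRCh38 and Salmon on GENCODE v45; libraries were stranded and poly(A)-captured. The estimated counts were rounded to whole numbers. Of 63187 gene IDs, 62666 matched a symbol; names, transcripts and stem-loops came from GENCODE v44 and the GRCh38 sequence, so differences between the releases may affect single genes.

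Panel and time course were fitted separately with edgeR 4.0.16 in R 4.3.3 (TMM, filterByExpr, robust quasi-likelihood fit of all groups, Benjamini-Hochberg over all genes tested); SE is the log2 fold change over the square root of F. Scripts were tested on simulated data. DESeq2 1.42.0, other scalings and filters, a replicate block, fits of only the compared groups, leaving out libraries and summed or omitted copies were alternatives. Replicates differed by more than counting noise (chi-square per degree of freedom 2.18 to 6.03). A level with 3 counts or fewer in a whole group gives a bound only.

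Members, gene lists and tests were chosen with earlier results of these data known. Members were named by rule: all H1 genes, the 2 most abundant of each other family, and per drug comparison the 3 largest called changes with a mean of at least 50 counts; list genes were the 2 largest called with at least 100 counts, besides SLBP, NPAT, CDKN1A and the 5 tail-less RNAs. Other genes named, among them H2BC5, H2AC25, H3C15 and LSM11 outside its named comparisons, were picked after their values were seen. Some items are not reported here.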

Additional observations from a re-analysis of the deposited data

Results flagged for a closer look

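These results were flagged because an interaction term in edgeR's quasi-likelihood fit was called for at least 1 member. The term asks whether the effect of a drug differed between days or between drug backgrounds. For olaparib 1 µM the effect at day 5 differed from that at day 1 in 24 members, all higher, beside 15.6% of all genes higher and 14.2% lower. Among them were H2BC7 (1.22 on the log2 scale), H2BC21 (1.19) and H2BC18 (1.15), and the widest called difference was that of H2AC7 (2.35 ± 0.80), with 46 counts or fewer in any library of the time course. H2AC7 shares 83.0% of its pieces with another gene, so its counts may not be its own. For olaparib 5 µM it differed in 32 members, 26 higher and 6 lower, beside 27.2% and 27.7% of all genes. The share of members lower was under that of all genes. Among those called higher, H2AC19 (2.76) came first, followed by H2AC7 (2.46) and H3C13 (2.21, at most 57 counts in any library of the time course), and then H4C16 (2.11) and H2AC18 (2.03), of which H2AC18 and H2AC19 share nearly all their sequence and cannot be told apart by these counts. H2AC19 is at 0 in 1 DMSO library of day 5.

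The effect of olaparib differed with and without abiraterone in 4 members, H1-5 (-1.13), H2BC18 (-0.57), H2BC21 (-0.32) and H1-2 (-0.31). The effect of talazoparib differed with and without enzalutamide in 1 member, H2BC21 (0.15). Among all genes tested, the effects called for abiraterone with olaparib were 4.74% higher and 8.08% lower and for enzalutamide with talazoparib 5.32% and 7.28%. Both member counts were near or under those shares, and both moved when single libraries were left out, as given below.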

How the results depend on the processing

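Of the counts of called members under alternative settings, 284 lay within 1.5 times the reported count and 20 did not. Leaving out 1 library gave 2 to 6 members for the departure of abiraterone and olaparib from additivity, reported as 4, with 2 in the absence of DMSO B or C, abiraterone B, olaparib B or C, or abiraterone plus olaparib A; it gave 0 to 4 for enzalutamide and talazoparib, reported as 1, with 0 in the absence of DMSO A, 4 of talazoparib A, 3 of enzalutamide A, and 2 of DMSO B, enzalutamide B, talazoparib C or enzalutamide plus talazoparib A or C. Talazoparib against olaparib, reported as 3, ranged from 1 (without olaparib C or talazoparib C) to 5 (without talazoparib A). With no filter on low counts both departures gave 2, and total-count scaling gave 2 for enzalutamide and talazoparib. The cause was not tested.

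A replicate block changed no count by more than 1.5 times (36 for olaparib 5 µM at day 5 with and without the block, 17 against 19 for olaparib in the panel, 21 against 23 for enzalutamide plus talazoparib). Deviations of same-numbered libraries from their group means correlated between -0.132 and 0.127, so no pairing by replicate number was seen. Whether same-numbered libraries were handled together is not stated, and these correlations cannot show it. With the members that have a near-identical copy left out, olaparib 5 µM at day 5 gave 28 calls and enzalutamide 18.

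Single named members kept their direction and their side of the threshold in 1540 refitted values and lost a call in 114, of which 13 were under total-count scaling; no direction changed in these. Of the members' summed shares under other totals or without a library, 39 moved by less than the spread between replicates and 13 by more, all 13 with mitochondrial genes and the 5 tail-less RNAs taken out of the totals. Levels under 1 CPM rest on few counts, and the 5 members below the filter in the panel were not tested there.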
